A study of Mus musculus with 6 samples.

Results

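Sphingomyelin and sphingosine-1-phosphate genes were followed between stromal cells grown from marrow and cells regrown from brain after a stroke. The study describes the regrown cells as the injected marrow stromal cells. Marker genes of several cell types, given below, differed between the groups, and whether both hold the same kind of cell was not tested. The 10 genes are the sphingomyelinases Smpd1, Smpd2 and Smpd3, the ceramidase Asah1, the sphingosine kinases Sphk1 and Sphk2, the lyase Sgpl1, and the receptors S1pr1, S1pr2 and S1pr3. They were taken by name from the 18193 genes that have a probe set assigned to a single gene symbol on the Affymetrix mouse genome array, and they have 19 of the 34945 such probe sets (a probe set is the group of short probes that measures 1 transcript region). The main probe set of a gene was chosen by its mean log2 signal, as the highest over all 6 arrays, and every other probe set is given as a check. The genes themselves were selected with earlier results of these arrays known.

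The study compared naïve Large T BMSC, on 3 arrays labelled replicates 1, 3 and 5, with iLarge T BMSC, on 3 arrays labelled replicates 2, 4 and 6. Naïve Large T BMSC are bone marrow stromal cells that stuck to plastic, taken from H-2Kb-tsA58 mice (the Immortomouse), in which the H-2Kb promoter drives an SV40 large T antigen that is temperature-sensitive and keeps cells dividing at 33°C. iLarge T BMSC came from male C57BL/6 mice, 6 to 8 weeks old, in which the middle cerebral artery was occluded for 60 minutes and naïve Large T BMSC were injected into a vein 24 hours later. After 14 days the infarcted hemisphere was digested with collagenase and the cells that grew at 33°C were harvested. The study reports large T staining in all cells recovered this way, and no growth from mice given wild-type BMSC or saline. Whether all cells on the iLarge T arrays carry the transgene was not tested here. Both groups were grown at the same temperature. Passage through the animal, digestion of the brain and regrowth separate them and cannot be told apart. Each array held RNA pooled from 3 cultures or 3 hemispheres, so a p-value here measures the spread between arrays and not between animals. Signals are listed below in the order of these replicate numbers. The cells were profiled in bulk, and a lower signal from fewer cells of a type cannot be told apart from less RNA per cell.

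Sphingomyelin is an abundant membrane lipid, and sphingomyelinases cut it to ceramide. Ceramidases release sphingosine from ceramide, sphingosine kinases phosphorylate it to sphingosine-1-phosphate (S1P), and S1P is either cleaved by its lyase, dephosphorylated, or exported to act on G protein-coupled receptors of the cell surface. Ceramide is known for promoting growth arrest and cell death, and S1P for promoting survival, migration and the stability of vessels, in which S1P receptors of endothelial and mural cells take part.

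Of the 10 genes, Sphk1 and S1pr1 were called higher in iLarge T BMSC, Smpd3 was called lower, and 7 were not called. A call means an adjusted p under 0.05, from limma with Benjamini-Hochberg adjustment over 45037 probe sets, together with at least a 2-fold difference. Over all 18193 genes at their main probe sets, 6.80% were called, 3.54% higher and 3.26% lower. The groups did not overlap for 6 of the 10 genes, with 5 higher on every iLarge T array and 1 lower, where 27.6% of all genes did not overlap. The median log2 difference (iLarge T minus naïve) of the 10 genes was 0.82, beside 0.06 over all genes. Over the 19 probe sets 3 were called higher and 3 lower, and over all probe sets 4.74% were called, 2.47% higher and 2.27% lower. These counts describe genes chosen with results known, and nothing particular to the list is read from them.

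**Figure D1:**
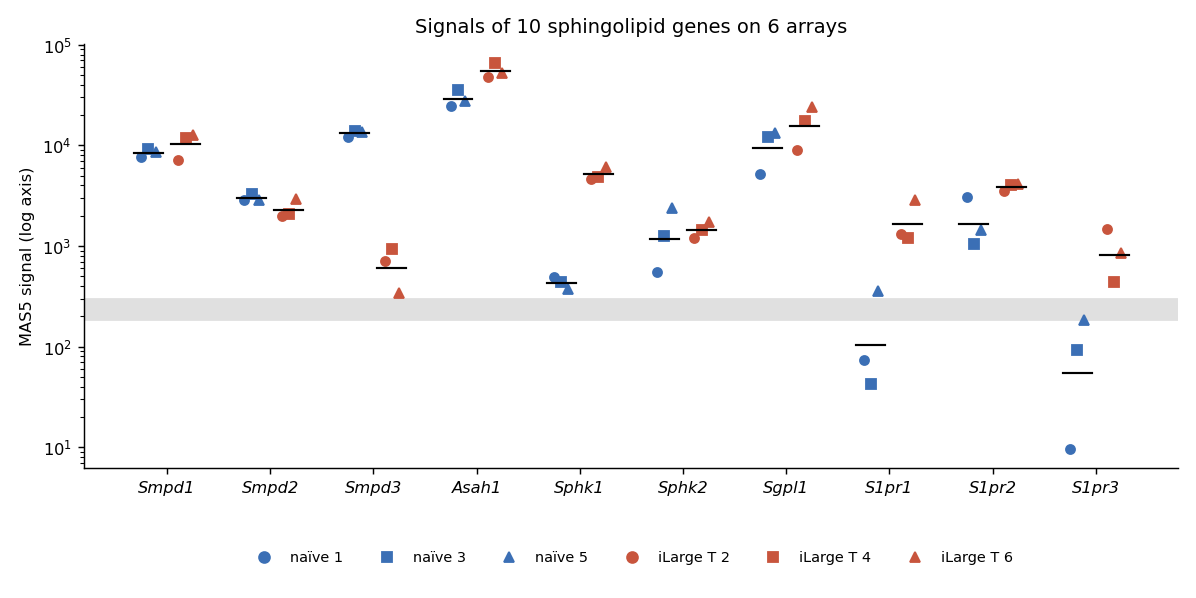
Signals of the 10 genes at their main probe sets on each of the 6 arrays (MAS5 signal, log axis), with naïve arrays in blue and iLarge T arrays in red, and a bar at the geometric mean of each group. The gray band spans the 40th percentiles of the 6 arrays (182.5 to 299.6). Smpd3 lay far above the band in all naïve arrays and Sphk1 in all iLarge T arrays, while S1pr1 and S1pr3 started below or near it in naïve cells.

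Smpd3, which encodes a neutral sphingomyelinase of the Golgi and plasma membrane known for its part in bone and cartilage and in the release of exosomes, fell. Its signal was 12052, 13988 and 13640.3 in naïve cells, and 706, 941 and 339 in iLarge T cells. Every iLarge T array lay far below every naïve array. The mean signal was 13227 ± 1032 (SD, n = 3) in naïve cells and 662 ± 303 (SD, n = 3) in iLarge T cells. Smpd3 thus had a log2 difference of -4.44 (SE 0.39, 95% interval -5.30 to -3.57, adjusted p = 0.000610 from limma), which is 21.7-fold lower.

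The other Smpd3 probe sets gave the same direction. At 1422779_at the signal was 8949, 10687 and 13504 on the naïve arrays and 395, 623 and 351 on the iLarge T arrays, a log2 difference of -4.62 (SE 0.34, adjusted p = 0.000361 from limma). At 1450748_at it was 4119, 6726 and 6067 against 494, 663 and 71.4, a log2 difference of -4.27 (SE 0.74, adjusted p = 0.0109 from limma). The lowest of these values, on iLarge T replicate 6, was below the 40th percentile of its array, a range called near background here because the files hold no detection calls. Smpd3 kept its call at the main probe set without any 1 of the 6 arrays, with log2 differences from -4.75 to -4.02.

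The other sphingomyelinases were not called. Smpd1, the acid sphingomyelinase of lysosomes, had signals of 7592, 9287 and 8676 on the naïve arrays and 7213, 11908 and 12576 on the iLarge T arrays. The groups overlapped, because iLarge T replicate 2 had the lowest signal of the 6. The log2 difference was 0.27 (95% interval -0.35 to 0.89, adjusted p = 0.697 from limma), so a change of more than 2-fold in either direction lies outside the interval. The other Smpd1 probe set, 1447874_x_at, ranged from 883 to 1049.8 in naïve cells and from 909 to 1183 in iLarge T cells (log2 difference 0.13, adjusted p = 0.917 from limma).

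Smpd2, another neutral enzyme, had signals of 2843, 3288 and 2847 on the naïve arrays and 1978, 2074 and 2912 on the iLarge T arrays. iLarge T replicates 2 and 4 lay below all naïve arrays and replicate 6 among them. The log2 difference was -0.39 (95% interval -1.04 to 0.27, adjusted p = 0.580 from limma).

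**Figure D2:**
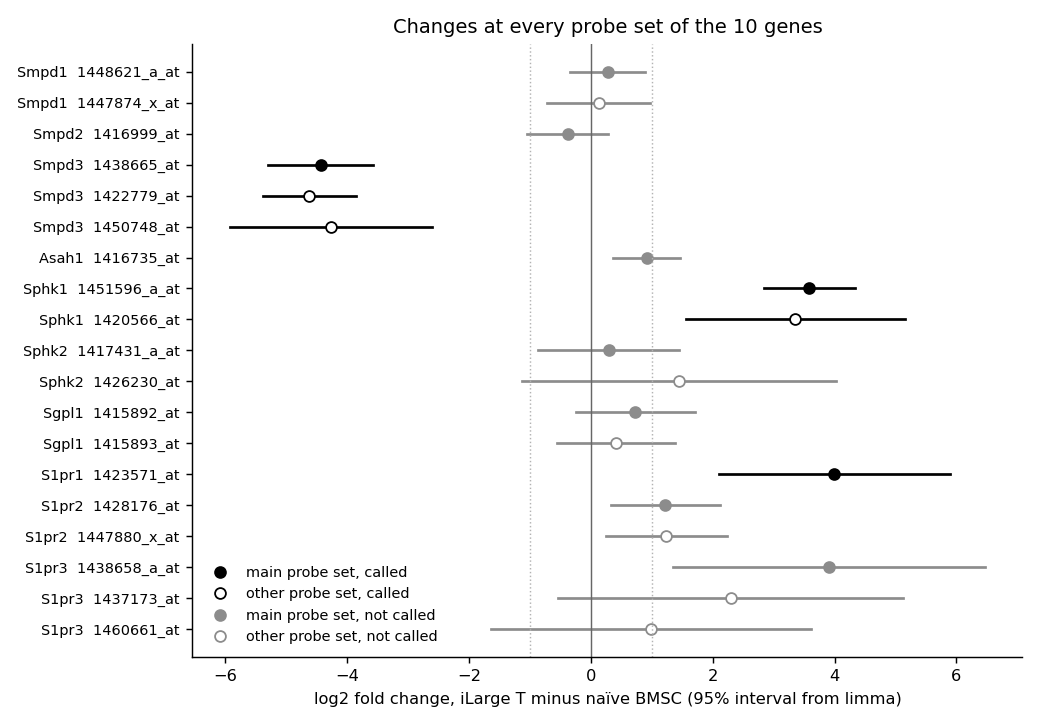
Log2 difference between iLarge T and naïve BMSC (points) with its 95% interval from limma (lines) at all 19 probe sets of the 10 genes. Filled points are main probe sets, open points the others, black ones are called and gray ones are not, and dotted lines mark 2-fold. All 3 probe sets of Smpd3 lie between -4.62 and -4.27 and both of Sphk1 are called higher, while the intervals for Smpd1 and Smpd2 include 0.

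Asah1, the acid ceramidase that frees sphingosine in lysosomes, was not called. Its signal was 24896, 35209 and 27792 on the naïve arrays and 47751, 65481 and 51932 on the iLarge T arrays. All 3 iLarge T arrays lay above all 3 naïve arrays, with a log2 difference of 0.91 (SE 0.24, 95% interval 0.37 to 1.46). This is 1.88-fold, under the 2-fold limit, and the adjusted p was 0.0683 from limma, so it met neither limit.

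Sphk1, the kinase that makes S1P mainly in the cytoplasm and at the plasma membrane, rose. Its signal was 489, 440.1 and 369.7 on the naïve arrays and 4673, 4869 and 6055 on the iLarge T arrays. The lowest iLarge T array lay far above the highest naïve array, and within each group the signals were close together. The mean was 433 ± 59.7 (SD, n = 3) in naïve cells and 5199 ± 748 (SD, n = 3) in iLarge T cells. This made a log2 difference of 3.59 (SE 0.33, 95% interval 2.84 to 4.33, adjusted p = 0.000776 from limma), which is 12.0-fold.

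The other Sphk1 probe set, 1420566_at, gave 65.3, 143 and 72.1 on the naïve arrays and 2139, 716 and 472 on the iLarge T arrays. All 3 naïve values were near background, so the difference is given as at least 4.10-fold higher, against the 40th percentile of each naïve array. In the main fit, on the signals as deposited, the adjusted p was 0.0452 from limma. Sphk1 was called at its main probe set without any 1 of the 6 arrays, with log2 differences from 3.47 to 3.68.

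Sphk1 has several start sites in RefSeq (GRCm38.p6), and the windows of 300 bases around the 3 that do not overlap are shown because it was the called gene for which promoter sequence was at hand (7 of the 10 genes were matched). Each runs from 250 bases before to 50 after the start, on the plus strand, and capitals mark the motif matches found on either strand. The motifs searched were GGGCGG (named the GC box), TATAAA (the motif known as the TATA box), CCAAT (known by its own letters), TGANTCA (the site of AP-1), TGACGTCA (the cyclic AMP response element) and ACGTG (the core of hypoxia response elements). Matches to different motifs did not overlap in these windows.
Sphk1 window 1, chr11:116530850-116531149: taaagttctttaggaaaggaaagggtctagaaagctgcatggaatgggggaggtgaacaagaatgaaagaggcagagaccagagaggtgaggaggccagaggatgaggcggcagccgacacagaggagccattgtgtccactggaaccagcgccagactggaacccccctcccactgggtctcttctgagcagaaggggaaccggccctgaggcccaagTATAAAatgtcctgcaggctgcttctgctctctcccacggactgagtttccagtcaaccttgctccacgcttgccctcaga
Sphk1 window 2, chr11:116531587-116531886: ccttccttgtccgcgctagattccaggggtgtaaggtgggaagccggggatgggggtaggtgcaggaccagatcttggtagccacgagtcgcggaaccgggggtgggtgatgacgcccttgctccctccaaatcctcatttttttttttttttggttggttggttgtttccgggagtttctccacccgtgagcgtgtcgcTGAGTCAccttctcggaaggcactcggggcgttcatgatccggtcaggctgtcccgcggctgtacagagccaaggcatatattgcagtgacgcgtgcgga
Sphk1 window 3, chr11:116532194-116532493: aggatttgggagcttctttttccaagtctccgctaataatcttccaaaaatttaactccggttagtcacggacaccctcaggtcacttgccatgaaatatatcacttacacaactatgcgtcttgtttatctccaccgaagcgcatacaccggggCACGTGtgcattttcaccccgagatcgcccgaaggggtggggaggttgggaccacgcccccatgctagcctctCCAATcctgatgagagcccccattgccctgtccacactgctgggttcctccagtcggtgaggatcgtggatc

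The first window holds TATAAA at position -31 from the start, and 13.6% of 32851 promoter windows of this length hold that motif. The second holds TGAGTCA at position -50, a match to TGANTCA, which 7.81% of windows hold. The third holds CCAAT at position -22, found in 37.4% of windows, and ACGTG on both strands at positions -95 and -94, where the matches overlap as CACGTG (19.6% of windows hold ACGTG). No window of the 3 holds GGGCGG, which 35.7% of promoter windows do. Such matches are letters in a window, and binding was not measured.

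Sphk2, the other kinase, found largely in the nucleus and mitochondria, was not called. Its signal was 556, 1259.6 and 2358 on the naïve arrays and 1200.0, 1452 and 1739.8 on the iLarge T arrays, so the naïve arrays spanned the iLarge T arrays on both sides. Sphk2 had a log2 difference of 0.29 (95% interval -0.87 to 1.45, adjusted p = 0.846 from limma), and it became -0.25 without naïve replicate 1. The other probe set, 1426230_at, ranged from 23.5 to 633 in naïve cells and from 318 to 675 in iLarge T cells (log2 difference 1.44, adjusted p = 0.598 from limma). The interval for Sphk2 includes changes above 2-fold upward, so a difference from Sphk1 is not read from the missing call, and the difference between the 2 kinases was not tested.

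Sgpl1, the lyase of the endoplasmic reticulum that breaks S1P down for good, was not called either. Its signal was 5223, 12047 and 13389.6 in naïve cells and 9059, 17459 and 24271 in iLarge T cells. The groups overlapped, since iLarge T replicate 2 lay below naïve replicates 3 and 5. The log2 difference was 0.73 (SE 0.44, 95% interval -0.25 to 1.71, adjusted p = 0.450 from limma). The other probe set, 1415893_at, gave a log2 difference of 0.41 (adjusted p = 0.707 from limma), with signals from 3859 to 7824 in naïve cells and from 4121 to 12828 in iLarge T cells.

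S1pr1, the receptor best known from endothelial cells and from the exit of lymphocytes into the blood, rose. It has 1 probe set, with signals of 72.8, 42.4 and 361 on the naïve arrays and 1302, 1200.0 and 2895 on the iLarge T arrays. All iLarge T arrays lay above all naïve arrays, naïve replicates 1 and 3 were near background, and the highest value was on iLarge T replicate 6. The log2 difference was 4.0 (SE 0.85, 95% interval 2.10 to 5.89, adjusted p = 0.0266 from limma), and 2.60 where signals below the 40th percentile of their array were raised to it. The call was lost when naïve replicate 3 was left out (adjusted p = 0.0758 from limma). It was likewise lost without each iLarge T array (adjusted p = 0.0890, 0.0910 and 0.137 from limma for replicates 2, 4 and 6). Log2 differences ran from 3.35 to 4.90 over the 6 omissions. Without iLarge T replicate 2 or 4 the difference was larger, at 4.17 and 4.23, although the call was lost.

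S1pr2, a receptor that often opposes migration, had signals of 3061, 1058 and 1435 on the naïve arrays and 3526, 4064 and 4108 on the iLarge T arrays. The groups did not overlap, but naïve replicate 1 lay close below iLarge T replicate 2. S1pr2 had a log2 difference of 1.22 (SE 0.40, 95% interval 0.33 to 2.12), with an adjusted p of 0.131 from limma, and it was 1.66 with an adjusted p of 0.00518 from limma when naïve replicate 1 was left out. The other probe set, 1447880_x_at, gave 969.8, 470.2 and 523 against 1838, 1227 and 1385, again without overlap (log2 difference 1.24, adjusted p = 0.171 from limma). S1pr2 was therefore not called at either probe set.

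S1pr3, a receptor of vascular smooth muscle, heart and fibroblasts, had signals of 9.65, 93.1 and 184 on the naïve arrays and 1474, 443 and 849 on the iLarge T arrays. All naïve values were near background and all iLarge T values above it, and the groups did not overlap. Against the 40th percentile of each naïve array the difference was at least 3.76-fold. In the main fit, on the signals as deposited, the adjusted p was 0.0928 from limma, so S1pr3 was not called. Without naïve replicate 1, whose value was the lowest, the adjusted p was 0.0483 from limma, and raising low signals to that percentile gave 0.0313 with a log2 difference of 1.91. The other probe sets were dim, with 1437173_at near background on 5 of the 6 arrays (386 on iLarge T replicate 6, adjusted p = 0.405 from limma) and 1460661_at on all 6 (adjusted p = 0.746 from limma).

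Hybridization controls, which are non-mouse transcripts added to each sample, tied every naïve array to 1 iLarge T array. Over 9 such probe sets the nearest array of naïve replicate 1 was iLarge T replicate 2, that of replicate 3 was replicate 4, and that of replicate 5 was replicate 6, and the reverse held each time. For BioC-3 the signals of these pairs were 10182 and 11079, 1620 and 2050, and 9710 and 8767. That control alone set apart only naïve replicate 3 with iLarge T replicate 4, and the other pairs rest on all 9 probe sets. The labels do not say what the pairs share, and they were read from the control signals after the data were seen. Each pair holds 1 array of each group.

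Within these pairs 6 of the 10 genes were higher in iLarge T cells in all 3 pairs and Smpd3 was lower in all 3, where 25.8% of all genes were higher and 22.5% lower. Asah1 differed by 0.94, 0.90 and 0.90 on the log2 scale and Sgpl1 by 0.79, 0.54 and 0.86, spreads smaller than those between arrays of a group. With the pairs as a block in limma, the adjusted p was 0.00970 for Asah1 and 0.0441 for Sgpl1, both still under 2-fold and not called. The other Sgpl1 probe set, 1415893_at, differed by 0.09, 0.42 and 0.71 within the pairs (adjusted p = 0.310 from limma with the block). Smpd3 (-4.09, -3.89 and -5.33), Sphk1 (3.26, 3.47 and 4.03) and S1pr1 (4.16, 4.82 and 3.01) were called with the block as well, and 9.87% of all genes were called in that fit, 5.0% higher and 4.86% lower. S1pr2 differed by 0.20, 1.94 and 1.52, S1pr3 was higher in all 3 pairs against naïve signals near background, and neither was called (adjusted p = 0.0877 and 0.0885 from limma with the block). Smpd1, Smpd2 and Sphk2 had both signs among their 3 pairs.

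**Figure D3:**
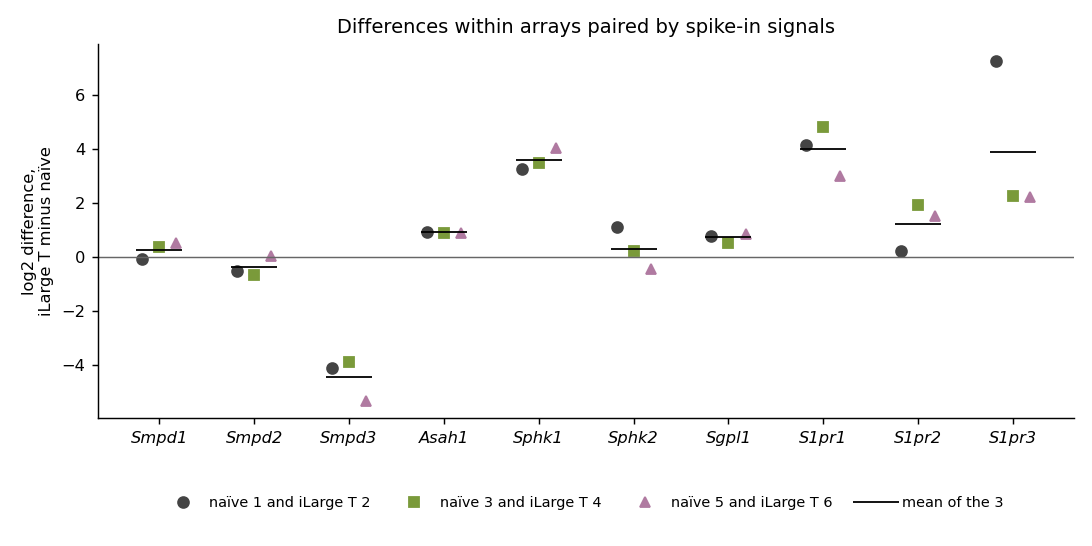
Log2 difference (iLarge T minus naïve) of the 10 genes at their main probe sets within each of the 3 pairs of arrays that are nearest in hybridization controls, with a bar at the mean of the 3. Asah1 has nearly the same difference in every pair, Sgpl1 is higher in all 3, and Sphk2 changes sign. The naïve signals of S1pr3 were all near background, so the size of its differences is not exact.

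Around these 10 genes, 72 other genes of sphingolipid metabolism and signaling were listed by role, of which 66 had a probe set of their own. Of the 66, 6 were called higher and 2 lower, and their median log2 difference was 0.43, beside 3.54% called higher, 3.26% lower and a median of 0.06 over all genes. By role, 0 of 14 genes of ceramide synthesis were called higher and 1 lower, 1 of 6 of sphingomyelin synthesis and ceramide transfer higher, and 1 of 7 other sphingomyelinases and ceramidases lower. Called higher were 1 of 12 S1P phosphatases, carriers and other receptors, 2 of 15 genes of glycosphingolipid synthesis and lysosomal breakdown, 1 of 5 lysophosphatidic acid receptors and 1 of 7 G alpha subunits that S1P receptors use. The medians of these 7 lists, in the same order, were 0.28, 0.22, -0.47, 0.01, 0.25, 1.14 and 0.67 on the log2 scale. Leaving out naïve replicate 1 gave 13 genes called higher, and leaving out iLarge T replicate 4 gave 3. The count of genes called lower was 1 on omitting iLarge T replicate 2 or 6, or a naïve array other than replicate 1.

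Plpp3, a phosphatase of the cell surface that removes the phosphate from S1P and lysophosphatidic acid, had the largest difference at the main probe set among the called genes of these lists. Its signal was 3037, 1625 and 1245 on the naïve arrays and 21615, 27509 and 47793 on the iLarge T arrays. Plpp3 had a log2 difference of 4.06 (SE 0.39, adjusted p = 0.000869 from limma), and the other probe set, 1448908_at, gave 4.42 (adjusted p = 0.0105 from limma). Plpp1, a related phosphatase, had signals of 13662, 4139 and 4490.2 against 15004, 18384 and 24160.3 and was not called (log2 difference 1.57, adjusted p = 0.0753 from limma). Abcc1, an exporter of S1P among other substrates, was not called (0.74, adjusted p = 0.185 from limma).

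Ceramide can be turned into glucosylceramide or back into sphingomyelin, and a gene of each step was called higher at its main probe set. Ugcg, the glucosylceramide synthase, had signals of 3055, 4504 and 4745 on the naïve arrays and 20472, 16772 and 28373 on the iLarge T arrays (log2 difference 2.41, SE 0.29, adjusted p = 0.00207 from limma) and was called at 3 of its 4 probe sets. Sgms2, a sphingomyelin synthase of the plasma membrane, gave 1684, 2292 and 2193 against 5251, 7208 and 4129.6 (1.40, SE 0.31, adjusted p = 0.0311 from limma). Neither gene's groups overlapped. Sgms2 was called on omitting naïve replicate 1 or iLarge T replicate 6, and lost its call on omitting any of the other 4 arrays (adjusted p up to 0.153 from limma). Its other probe set gave 1.34 and was not called (adjusted p = 0.314 from limma), and the dimmest of the Ugcg probe sets gave 1.64 (adjusted p = 0.622 from limma). Cert1, which carries ceramide to the Golgi, and Samd8 were not called (-0.17 and 0.22 on the log2 scale).

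Gla, the lysosomal alpha-galactosidase, rose from 2661, 2335 and 1438 to 5380.0, 9984 and 11113 (log2 difference 2.02, SE 0.36, adjusted p = 0.0126 from limma). Its call was lost without iLarge T replicate 4 (adjusted p = 0.0736) or replicate 6 (0.0655) from limma. The other Gla probe sets were not called, with log2 differences of 0.73 (adjusted p = 0.376 from limma) and, near background on all 6 arrays, 1.18 (0.740), and the mean of the 3 probe sets gave 1.31 (0.182). Of the other lysosomal genes, Psap and Hexa had log2 differences of 0.61 and 0.92 and were not called.

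Smpdl3b and Cers4 fell. Smpdl3b, a phosphodiesterase of the plasma membrane related to Smpd1, had signals of 2251, 4918 and 3794 on the naïve arrays and 517, 421 and 458 on the iLarge T arrays (log2 difference -2.91, SE 0.40, adjusted p = 0.00396 from limma). Cers4, a ceramide synthase, had signals of 5027, 8864 and 10540.3 against 1196, 2736 and 2425 (-1.96, SE 0.40, adjusted p = 0.0224 from limma). No iLarge T array of either gene reached a naïve array. The other Cers4 probe sets gave -1.47 and -1.11 and were not called (adjusted p = 0.0601 and 0.236 from limma). The call for Cers4 was kept on omitting naïve replicate 1 or iLarge T replicate 4 and lost on omitting any other array, and its adjusted p from limma reached 0.101 without naïve replicate 3.

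Degs1, the desaturase that completes ceramide synthesis, was not called (1.15, adjusted p = 0.0524 from limma) although its signals of 34995, 22173 and 18503 lay below all iLarge T signals of 52906, 65541 and 45657. Sptssa, a small subunit of serine palmitoyltransferase, gave -0.29. Smpdl3a, an extracellular relative of Smpd1, and Acer3, the alkaline ceramidase, gave 1.34 and 0.60 with adjusted p-values of 0.119 and 0.347 from limma. None of these 4 genes was called at its main probe set.

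Downstream of the receptors, Gnai1, an inhibitory G alpha subunit, rose from 539, 206 and 280.4 to 2378, 2630.2 and 4873 (log2 difference 3.31, SE 0.50, adjusted p = 0.00586 from limma). It was called at 2 of its 3 probe sets, with 6.02 at the other called one, where naïve replicates 3 and 5 were near background. The relatives Gnai2 and Gnai3 gave 0.45 and 0.34 and were not called. Lpar4, a receptor of the related lipid lysophosphatidic acid, rose from 677, 622 and 494 to 1573, 2569 and 2737 (1.91, SE 0.39, adjusted p = 0.0237 from limma), and lost its call on omitting iLarge T replicate 4 or 6, or a naïve array other than replicate 1 (adjusted p up to 0.124 from limma). The other Lpar4 probe sets gave 1.43 and 1.23 and were not called (adjusted p = 0.297 and 0.265 from limma). Lpar1 and Lpar6 gave 2.28 and 0.90 and were not called (adjusted p = 0.305 for Lpar1 from limma).

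The other S1P receptors are given here although they were picked after their values were seen. S1pr5, a receptor of oligodendrocytes and natural killer cells, had signals of 326, 401 and 511 on the naïve arrays and 16.2, 64.9 and 21.9 on the iLarge T arrays. The iLarge T values were all near background, and the difference was at least 1.65-fold lower. In the main fit, on the signals as deposited, the adjusted p was 0.0608 from limma, so S1pr5 was not called. S1pr4, known from lymphocytes, was near background on 1 array of each group and was not called (adjusted p = 0.826 from limma).

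**Figure D4:**
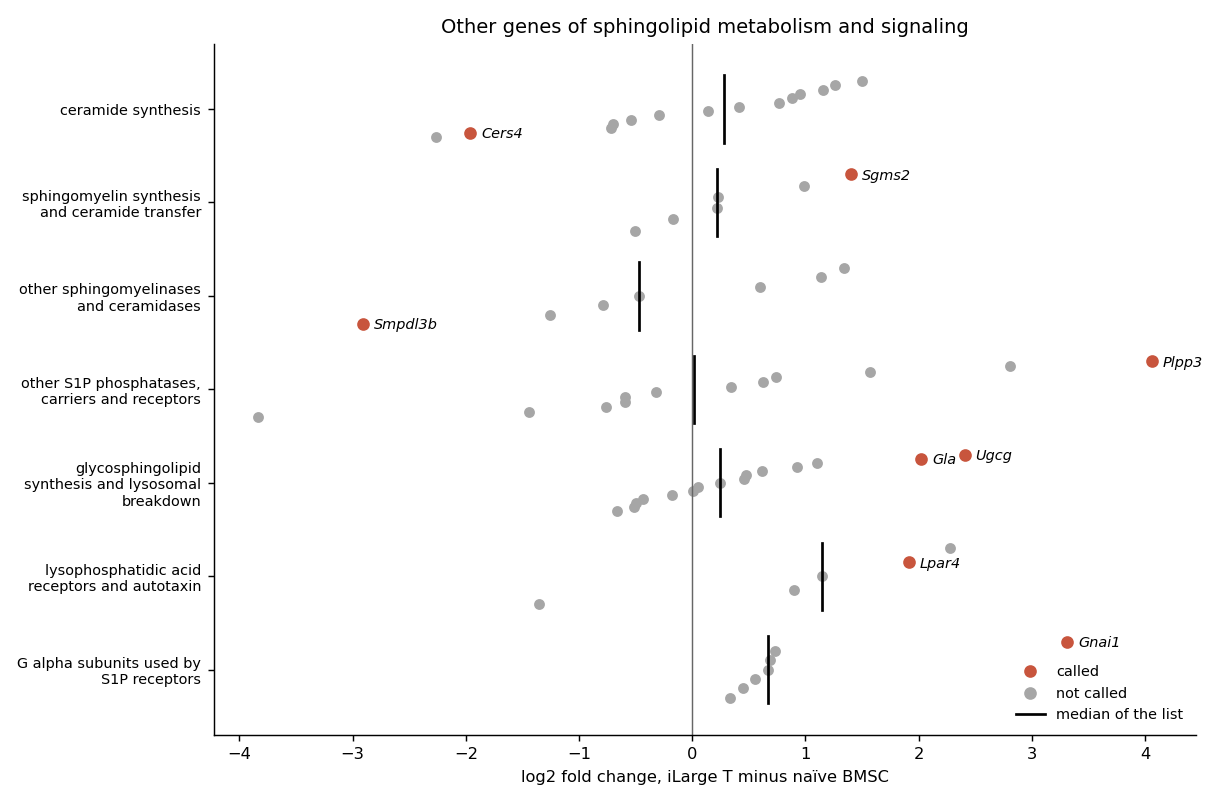
Log2 difference (iLarge T minus naïve) of the 66 other sphingolipid genes at their main probe sets, 1 point a gene, by role, with called genes in red and named, the others in gray, and a bar at the median of each list. Plpp3 lies farthest to the right at 4.06, Smpdl3b is the lowest called gene at -2.91, and the lowest point is S1pr5, which was not called and whose iLarge T signals were all near background, so its place is not exact.

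For each called gene, the 3 genes most like it over the 6 arrays were sought among 9089 genes of at least median mean signal. Most like Smpd3 were Suz12, Hat1 and Cenpk (Pearson's r of log2 signals 0.999, 0.999 and 0.998 over 6 arrays). Most like Sphk1 were Foxf2, Slc39a14 and Cat (0.998, 0.996 and 0.996). Most like S1pr1 were Lpin2, Fam122a and Meis3 (0.988, 0.979 and 0.977). The arrays fall into the 2 groups being compared, so such values are reached by any gene that separates the groups with a like spread, and they are a description.

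Marker genes of other cell types moved with the groups and with 1 array. The summed signal of 7 mesothelial markers was 156579 to 233148 on the naïve arrays and 3737 to 4998 on the iLarge T arrays, with 6 of 7 called lower. Upk3b and Bnc1, which mark mesothelium, were near background in every iLarge T sample. Smpd3, Smpdl3b and Cers4 were lower on the same arrays, and the part of this list in those results was not tested. The 9 pericyte and smooth muscle markers summed to 54980 to 257443 on the naïve arrays, the highest being naïve replicate 1, and to 201581 to 291735 on the iLarge T arrays, with 2 called higher (Rgs5 and Cspg4). Rgs5 was near background on all naïve arrays, and the part of these markers in the higher signals of Sphk1, S1pr1 and Plpp3 was not tested.

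iLarge T replicate 6 stood apart in markers of blood and vessel cells. The 9 macrophage and microglia markers summed to 63817 there and to 5012 and 6511 on the other iLarge T arrays, against 3418 to 11276 on the naïve arrays, with 1 of 9 (Csf1r) called higher. On naïve replicates 3 and 5 the sum was mostly Cd68, at 9873 and 8396. Csf1r was 883, 330 and 339 on the naïve arrays and 3716, 1892 and 5673 on the iLarge T arrays. The 8 endothelial markers summed to 61042 there and to 9322 and 9433 on the other iLarge T arrays, against 8334 to 11901 on the naïve arrays, with Cdh5 and Emcn called higher and Tek lower. The naïve sum was mostly Tek, at 5703, 8480 and 9080. Cdh5, which defines endothelium, was near background on all naïve arrays and was 2211, 2787 and 23797 on the iLarge T arrays, and Emcn was likewise near background and then 2857, 2917 and 15858. Both were thus higher on every iLarge T array, as S1pr1 was, and their part in that result was not tested. The leukocyte gene Ptprc was near background on all naïve arrays and on iLarge T replicates 2 and 4, and was 4440 on replicate 6. S1pr1 had its highest signal on iLarge T replicate 6, and without that array the log2 difference was 3.59 with an adjusted p of 0.137 from limma. The S1pr1 call was also lost without iLarge T replicate 2 or 4 (adjusted p = 0.0890 and 0.0910 from limma) or naïve replicate 3 (0.0758). Smpd3 and Sphk1 were called without replicate 6.

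Astrocyte, oligodendrocyte and neuron markers were low, with 10 genes summing to 2309 to 2792 on the naïve arrays and 2726 to 6817 on the iLarge T arrays, the highest again on replicate 6 (Gfap 3104), 0 of 10 called, and Mog near background on all 6 arrays. Of 10 markers of marrow stromal cells, 1 was called higher (Pdgfrb) and 1 lower (Vcam1). Their sum was 122425 to 194517 on the naïve arrays and 214801 to 334994 on the iLarge T arrays. None of these 10 markers was near background on all arrays of either group at its main probe set. The sum does not show that each marker was kept. On every iLarge T array 2 markers were higher and 2 lower at their main probe sets, the lower ones being Vcam1 and Nt5e, which was not called. The higher ones were Pdgfrb and Col1a1, which was not called. The other Col1a1 probe set, 1455494_at, went the opposite way (log2 difference -1.22, adjusted p = 0.114 from limma). Ly6a had no probe set of its own. Lepr was near background on 1 array of each group at its main probe set, and on all naïve arrays at its others. At 1456156_at it was called higher, with 2 iLarge T arrays also near background (adjusted p = 0.0124 from limma).

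**Figure D5:**
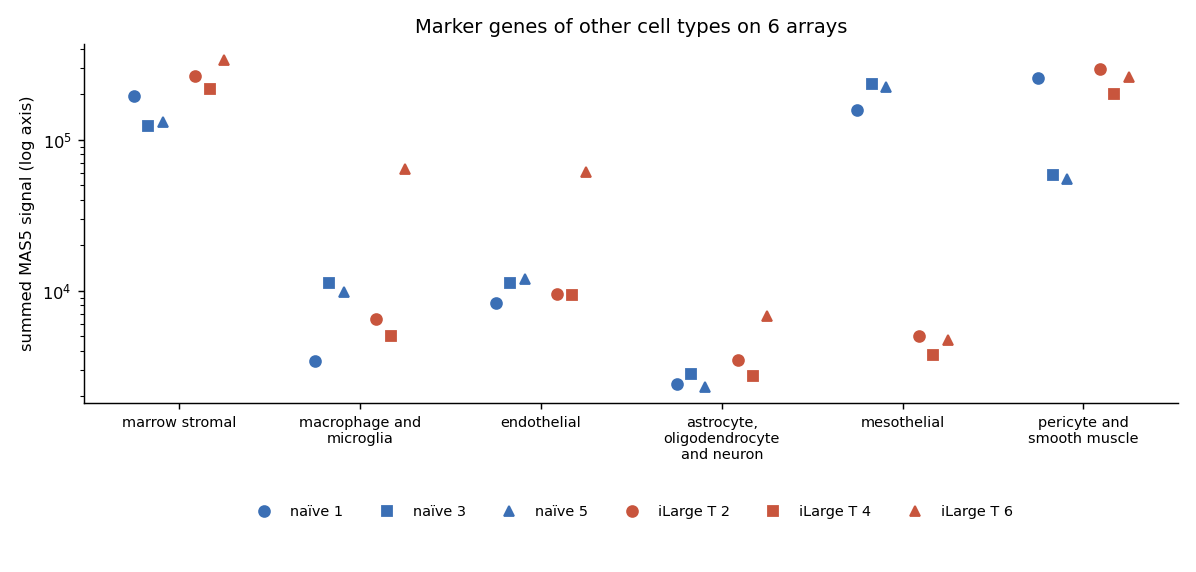
Summed MAS5 signal (log axis) of the markers of 6 cell types on each array, with naïve arrays in blue and iLarge T arrays in red. Mesothelial markers reached at most 4998 on the iLarge T arrays and at least 156579 on the naïve arrays. iLarge T replicate 6 was the highest of the 6 arrays for macrophage and endothelial markers. It was also the highest for the marrow stromal list and for the astrocyte, oligodendrocyte and neuron list.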

How the data were processed

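Signals were read for 6 Affymetrix mouse genome arrays, 3 a group. Per the labels and the methods, the authors made the deposited intensity values with MAS5 in GeneChip Operating Software, scaling each array to a trimmed mean of 2500, and the values have no log and no detection calls. Probe sets differ in brightness, so levels of different genes were not tested against each other. The marker sums add signals across genes, and the brightest probe sets weigh most in them. Of 45101 probe sets, 64 controls were left out and 45037 were tested. GEO's platform annotation gave 34945 of these 1 gene symbol, 932 several and 9160 none. Array medians ran from 308 to 450.2, the 3′/5′ signal ratios of Gapdh from 0.673 to 0.831, and those of actin from 1.08 to 1.21. The number of arrays limits the precision.

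The test was limma 3.58.1 (R 4.3.3) on log2 signals with an intensity trend, checked on simulated data, with Benjamini-Hochberg adjustment over all 45037 probe sets. A fold against a group near background (below the 40th percentile of its array on all 3 arrays) is given as a lower bound against that percentile. The p-value beside such a bound comes from the main fit, in which no signal was raised. Named were all 10 genes, called pathway genes, up to 2 uncalled genes of each list with the highest signal, and the 3 most alike genes. The members and lists were chosen with earlier results of these data known. Alternatives changed the test, the variance trend, normalization, filter, floor, added constant, probe set rule, fold threshold and arrays. The unpaired t-test of the methods was among them. RefSeq sequences are of GRCm38.p6.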

Additional observations from a re-analysis of the deposited data

How the results depend on the processing

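The numbers of genes called depended on the test. With the methods' t-test on log2 signals, 1 of the 10 genes was called higher and 0 lower (1 and 0 of their 19 probe sets), and 0 pathway genes were called in either direction. With that t-test on linear signals 0 of the 10 genes were called higher, with 0 probe sets higher and 1 lower, and 0 pathway genes either way. In limma without the intensity trend 1 gene and 1 probe set were called higher, and 1 pathway gene higher and 0 lower. Leaving out 1 array at a time gave 1 to 4 of the 10 genes higher and 1 to 1 lower, 1 to 6 probe sets higher and 2 to 3 lower, and 3 to 13 pathway genes higher and 1 to 2 lower.

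Smpd3 lost its call with the t-test on log2 signals (log2 difference -4.44, adjusted p = 0.0728) and Sphk1 with that on linear signals (3.59, 0.0669). S1pr1 lost its call with both t-tests (4.0 and 3.50, adjusted p = 0.204 and 0.331) and in limma without the trend (4.0, 0.120). The direction of Sphk2 turned without naïve replicate 1 (-0.25), in a range from -0.25 to 0.79 over single omissions. S1pr3 was called with low signals raised (1.91). Without 1 array S1pr1 ranged from 3.35 to 4.90, S1pr2 from 0.89 to 1.66, and S1pr3 from 2.65 to 4.78. Naïve signals were near background on 2 arrays for S1pr1 and on all 3 for S1pr3, so their fitted values are no bounds. No naïve signal of S1pr2 was near background. With the mean of a gene's probe sets 4 pathway genes were called higher and 4 lower, and Sgms2 (adjusted p = 0.0646), Gla (0.182) and Lpar4 (0.0820) lost their calls. With the most variable probe set 4 were called higher and 3 lower, and Sgms2 (0.314), Ugcg (0.622) and Gla (0.740) lost theirs. The cause of these changes was not tested.

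The replicate numbers in the labels (1, 3 and 5 against 2, 4 and 6) are shared by no arrays and state no pairing. The pairs from the hybridization controls join consecutive numbers (1 and 2, 3 and 4, 5 and 6). The methods describe 3 independent sets of experiments and do not say which arrays form a set. The block by hybridization controls, added after seeing the data, changed no call among the 10 genes, and moved the pathway genes called higher to 8. The lowest p an exact permutation test over 3 against 3 arrays can give is 0.1.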
